A study of Mus musculus with 18 samples.

Results

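Rasgrp1 lies on mouse chromosome 2, at chr2:117279993-117343001 on the GRCm38 genome. The genes described here are its neighbours: the 148 genes, of 55536 in the deposited count table, that start within 10 Mb of the Rasgrp1 start and have a mean of 10 or more read counts over the 18 libraries. That stretch holds 392 genes, of which 240 fell under the minimum. Of the 152 at or over it, Spred1, Fbn1, Eif3j1 and Dnajc17 were left out by name. Rasgrp1 itself was left out as well, and Eif3m, also left out by name, starts 12.28 Mb away. Apart from the genes left out by name, the rule used position and mean count. It was chosen with earlier results of these data known, and Eif3j1, left out by name, differed between the genotypes, as given below. All 148 members passed the low-count filter of the fit, so each was tested.

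Of the members, 28 start at a lower coordinate than Rasgrp1 and 120 at a higher coordinate. The annotation in the files calls 141 of them protein coding, 4 lincRNA, 2 processed transcripts and 1 antisense RNA. At the ends of the window, Mettl15 at -8.19 Mb and Stard7 at 9.99 Mb were the outermost members, while Arl14ep at -10.32 Mb and Dusp2 at 10.06 Mb lay outside. At the count minimum, Hdc was inside with a mean of 10.11 counts and Capn3 outside with 9.44 counts.

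The study grew organoids from mammary glands of C57BL/6 mice aged 6 to 7 weeks, embedded in matrigel, a basement membrane gel, and measured RNA by sequencing. The mice were wild type (WT) or RasGRP1-/- (KO). Each genotype was kept for 5 days in 3 media: EGF at 2.5 nM, NGS-Wnt at 0.1 nM with Rspo2 at 8.3 nM (called WR here), or all 3 factors at the same doses (EGF-WR). All 6 groups shared the base medium, DMEM/F12 with insulin, transferrin and selenium, and each had 3 biological replicates, numbered as batches 1 to 3. EGF is a growth factor whose receptor signals through Ras, NGS-Wnt is an engineered protein that stands in for Wnt, and R-spondin 2 (Rspo2) strengthens Wnt signalling. The deleted part of Rasgrp1, the strain in which the allele was made and the number of backcrosses are unstated in the sources used here. Loss of RasGRP1 and variants linked to the allele therefore cannot be told apart in a difference between KO and WT on this stretch. The labels do not say whether the replicates came from separate mice, so p-values measure only the spread between these samples.

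Rasgrp1 encodes an exchange factor that is recruited by diacylglycerol and loads Ras with GTP. Genes that lie close together on a chromosome are inherited together, and neighbours can share regulatory DNA while having unrelated functions. The stretch around Rasgrp1 holds, among others, the R-spondin receptor Lgr4, the matrix protein gene Thbs1, a run of mitosis genes (Bub1b, Knstrn, Knl1, Oip5, Nusap1), the dual oxidases Duox1 and Duox2 with the maturation factor Duoxa1, and B2m, the light chain of class I antigen-presenting molecules.

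Libraries held 24290097 to 31269899 counts each. Members took 0.771% to 0.979% of all counts in WT libraries and 0.838% to 1.05% in KO libraries, and the KO share was the higher in 9 of 9 pairs of the same batch and medium. This share leans on the most abundant members: Thbs1, B2m and Muc15 took 12.57%, 8.3% and 7.34% of the members' counts. It does not describe the typical member, since the members' median log2 difference between KO and WT over the media was 0.009. Summed marker levels over the 18 libraries were 3429 to 5413 CPM (counts scaled to library size) for luminal and 3636 to 8302 CPM for basal or myoepithelial cells. They were 355 to 2595 CPM for fibroblasts, 70.1 to 547 CPM for endothelial cells, 39.6 to 1100 CPM for adipocytes, 8.52 to 150 CPM for myeloid cells and 0.242 to 2.61 CPM for lymphocytes, with Ms4a1 at 0 throughout. Of 40 markers, 35 were tested and none was called between KO and WT. In bulk RNA, fewer cells of a type and less RNA per cell cannot be told apart.

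Rasgrp1 was low in every library. The WT libraries of batches 1 to 3 had 28, 10 and 25 counts with WR, 15, 15 and 21 with EGF and 7, 6 and 18 with EGF-WR. The KO libraries had 0, 0 and 9 with WR, 0, 6 and 4 with EGF and 0, 0 and 6 with EGF-WR. The KO library was the lower in each of the 9 pairs and 5 of 9 KO libraries had no count, though the library with 9 counts exceeded 2 WT libraries. The mean was 0.542 ± 0.254 CPM (SD, n = 9) in WT and 0.0988 ± 0.125 CPM (SD, n = 9) in KO. The log2 difference of -2.71 ± 0.72 (SE) did not pass the test, with an adjusted p of 0.173 in edgeR's quasi-likelihood test.

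The first comparison asked which neighbours differed between KO and WT over the average of the 3 media. With the batch as a block, 19 of the 148 members (12.8%) were called at an adjusted p under 0.05, against 0.339% of all genes tested (58 of 17092). Of the 19, 11 were higher in KO, among them Ckmt1, Ehd4, Mapkbp1 and Duoxa1, and 8 were lower, among them Tyro3, Chp1 and Mfap1b. The members moved in both directions: their median log2 difference was 0.009, against -0.004 over all genes. The median size of the difference, whatever its sign, was 0.161 in members and 0.098 in all genes. Without the batch term 8 of the 19 were called, and without batch 3 the count was 7; leaving out either WT EGF-WR replicate 2 or replicate 3 gave 12.

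**Figure D1:**
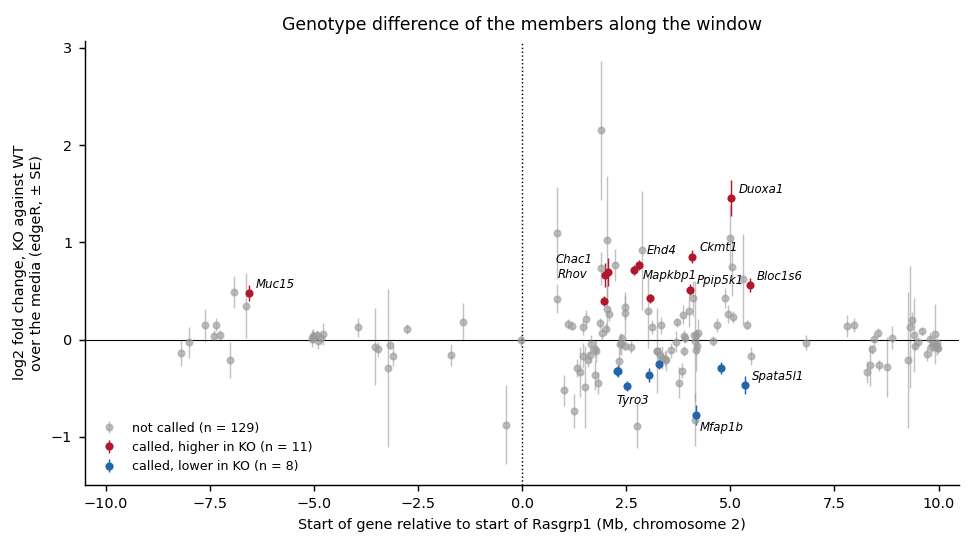
Log2 difference between KO and WT over the media (vertical axis, edgeR estimate, bars are SE) against the start of each of the 148 genes relative to the start of Rasgrp1 (horizontal axis, Mb). The 11 members called higher (red) and the 8 called lower (blue) lie, apart from Muc15 at -6.56 Mb, between 1.96 and 5.46 Mb, among members that were not called (grey).

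Signalling genes gave calls in both directions. Over the media 12.8% of all members and 0.339% of all genes were called. Of 22 members on the list of ligands, receptors and signalling genes, 4 were higher in KO (Mapkbp1, Ehd4, Spint1, Rhov), 2 were lower (Tyro3, Chp1) and 16 were not called. The median log2 difference of this list was 0.07.

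Mapkbp1 encodes a scaffold protein that binds JNK. It was at 80.8 to 128 CPM (median 96.0) in the 9 WT libraries and at 124 to 192 CPM (median 175) in the 9 KO libraries. KO exceeded WT in each of the 9 pairs, and within each medium the 3 KO libraries lay above the 3 WT libraries. The difference was 1.65-fold (log2 0.72 ± 0.05 SE, adjusted p = 1.76e-07 in edgeR).

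Ehd4 encodes an ATPase of the endocytic recycling pathway. It was at 50.6 to 94.4 CPM (median 71.2) in WT and at 81.3 to 155 CPM (median 124) in KO. The KO and WT libraries were apart within each medium and in each pair, although over all media the lowest KO library lay below the highest WT library. The difference was 1.70-fold (log2 0.77 ± 0.05 SE, adjusted p = 1.25e-07), and in KO minus WT by batch it was 0.66, 0.92 and 0.71 on the log2(CPM + 0.5) scale.

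Spint1 encodes a membrane inhibitor of serine proteases that activate hepatocyte growth factor. It ranged from 128 to 223 CPM (median 172) in WT and from 173 to 310 CPM (median 232) in KO. All KO libraries exceeded the WT libraries of the same medium. The difference was 1.31-fold (log2 0.39 ± 0.05 SE, adjusted p = 3.16e-04). Rhov, an atypical small GTPase, was at 15.9 to 68.5 CPM (median 33.0) in WT and 33.2 to 92.3 CPM (median 52.9) in KO, 1.59-fold higher (log2 0.67 ± 0.12 SE, adjusted p = 0.0358). It was higher in each of the 9 pairs, but KO and WT were fully apart in 1 medium only.

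Tyro3 encodes a receptor tyrosine kinase of the TAM family. It was at 138 to 237 CPM (median 182) in WT and 97.4 to 179 CPM (median 111) in KO. KO was the lower in each pair, and KO minus WT in batches 1 to 3 was -0.395, -0.498 and -0.538 on the log2(CPM + 0.5) scale. The difference was 1.39-fold lower in KO (log2 -0.48 ± 0.06 SE, adjusted p = 1.93e-04; 0.0613 without the batch term). Chp1, a calcium-binding partner of sodium-proton exchangers, was at 78.3 to 110 CPM (median 99) in WT and 67.4 to 86.9 CPM (median 78.1) in KO, 1.25-fold lower (log2 -0.33 ± 0.05 SE, adjusted p = 0.00217; 0.102 without the batch term).

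Other receptors and ligands did not pass the test. Lgr4, the receptor for R-spondins, was at 138 to 255 CPM in WT and 155 to 330 CPM in KO, with a log2 difference of 0.16 ± 0.06 (SE) and an adjusted p of 0.402. Thbs1 encodes thrombospondin 1 and took the largest share of the members' counts, 12.57%. Its levels of 424 to 1739 CPM in WT and 450 to 3280 CPM in KO overlapped widely (adjusted p = 0.342). By batch its log2 difference was 0.159, 1.04 and 0.059, so batch 2 stood apart. Gpr176 differed by -0.52 ± 0.16 (SE) with an adjusted p of 0.264 and was lower in KO in 6 of 9 pairs.

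**Figure D2:**
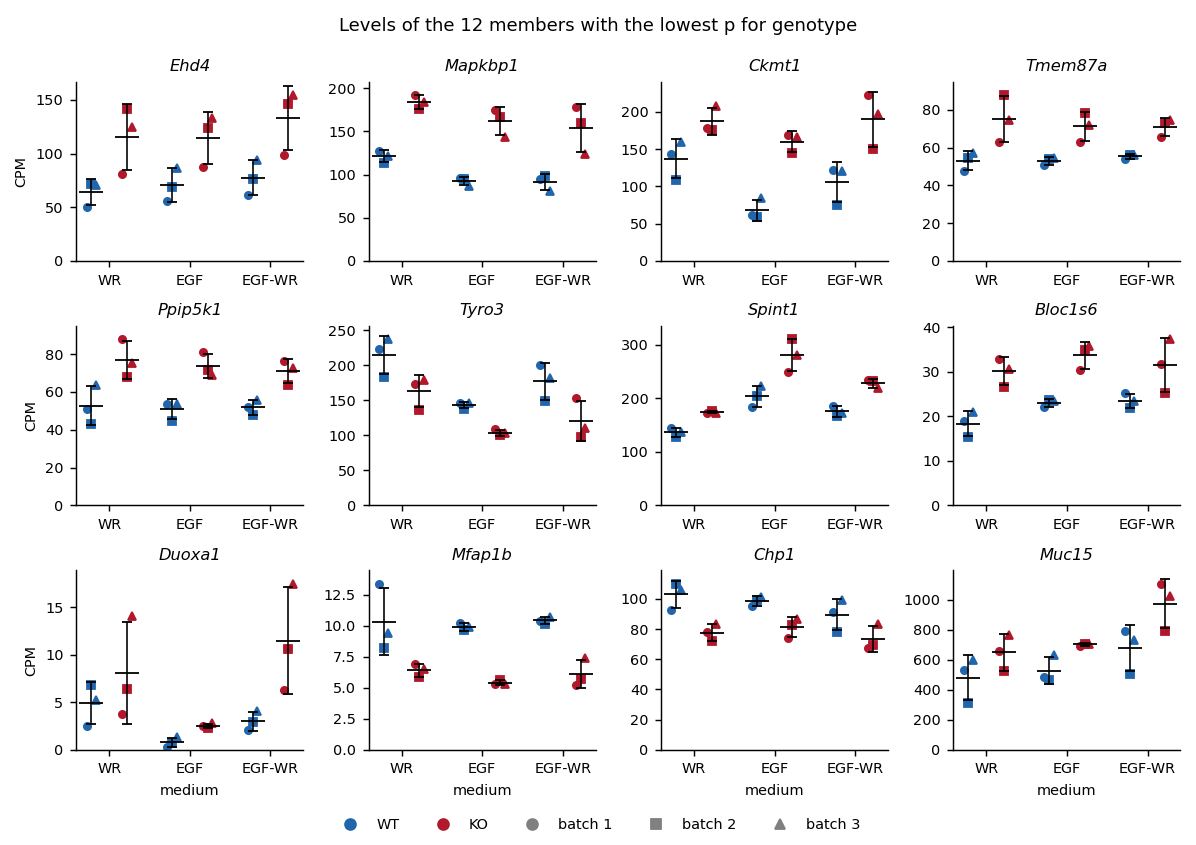
CPM per library (vertical axis, from 0) by medium (horizontal axis) for the 12 members with the lowest p between genotypes; blue is WT, red is KO, marker shapes are batches, and black bars are mean ± SD of 3 libraries. Mapkbp1, Ehd4, Tmem87a, Ppip5k1, Ckmt1, Spint1, Bloc1s6 and Mfap1b show KO and WT apart within every medium.

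Metabolic and mitochondrial genes gave 1 call among 19 members, with 0.339% of all genes called. Ckmt1 encodes the ubiquitous mitochondrial creatine kinase. It was at 58.4 to 159 CPM (median 109) in WT and 144 to 222 CPM (median 176) in KO. KO and WT were apart in each medium, and the difference was 1.81-fold (log2 0.85 ± 0.07 SE, adjusted p = 9.64e-07). In WR medium the log2 difference was 0.47 ± 0.11 (SE, adjusted p = 0.423), in EGF medium 1.24 ± 0.11 (adjusted p = 2.68e-05) and in EGF-WR medium 0.85 ± 0.11 (adjusted p = 0.00185). Galk2, a sugar kinase on the same list, was lower in KO in each of 9 pairs and missed the threshold (log2 -0.27 ± 0.06 SE, adjusted p = 0.0768).

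Ppip5k1, an inositol pyrophosphate kinase outside the role lists, was at 43.3 to 63.7 CPM (median 51.8) in WT and 63.9 to 87.8 CPM (median 72.4) in KO. All 9 KO libraries lay above all 9 WT libraries. The difference was 1.43-fold (log2 0.51 ± 0.06 SE, adjusted p = 6.88e-05). Muc15, which encodes a membrane-bound mucin, was the only called member at a lower coordinate than Rasgrp1. It was at 314 to 794 CPM (median 529) in WT and 525 to 1107 CPM (median 708) in KO, higher in each pair and 1.39-fold over the media (log2 0.48 ± 0.08 SE, adjusted p = 0.0147; 0.8 without the batch term).

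Membrane traffic genes moved in both directions. Of 13 members, 2 were higher in KO (Tmem87a and Bloc1s6), 3 were lower (Vps39, Snap23, Spg11) and 8 were not called (0.339% of all genes called). Tmem87a, a membrane protein of the Golgi, was at 47.5 to 57.3 CPM (median 54.4) in WT and 63.0 to 87.9 CPM (median 72.8) in KO. Bloc1s6, a subunit of the complex that builds lysosome-related organelles, was at 15.3 to 25.2 CPM (median 22) in WT and 25.3 to 37.3 CPM (median 31.9) in KO. For both genes all KO libraries lay above all WT libraries. The differences were 1.34-fold for Tmem87a (log2 0.42 ± 0.05 SE, adjusted p = 6.88e-05) and 1.48-fold for Bloc1s6 (log2 0.56 ± 0.07 SE, adjusted p = 3.92e-04).

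The 3 lower traffic genes differed by less. Vps39, a subunit of the HOPS tethering complex, was at 52.4 to 70.2 CPM in WT and 32.9 to 64.7 CPM in KO (log2 -0.36 ± 0.07 SE, adjusted p = 0.0446; 1 without the batch term). Snap23, a SNARE of the plasma membrane, was at 41.0 to 61.0 CPM in WT and 36.8 to 45.9 CPM in KO (log2 -0.25 ± 0.05 SE, adjusted p = 0.0425; 0.462 without the batch term), with KO the higher in 1 of 9 pairs. Spg11, which is needed for the re-formation of lysosomes, was at 58.2 to 68.0 CPM in WT and 42.3 to 61.7 CPM in KO (log2 -0.29 ± 0.06 SE, adjusted p = 0.0425; 0.248 without the batch term). Exons of Spg11 overlap Eif3j1 on the opposite strand over 13.77% of their length, and the sources used here do not state the strand setting of the counting. Eif3j1 fell from 1017 counts over the WT libraries to 122 over the KO libraries, so reads of the 2 genes cannot be told apart in that stretch.

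Oxidase genes were low and gave 1 call among 3 members, with 0.339% of all genes called. Duoxa1, the factor that brings Duox1 to the cell surface, was at 0.301 to 6.87 CPM (median 2.52) in WT and 2.32 to 17.5 CPM (median 6.33) in KO. It was higher in KO in 8 of 9 pairs and 2.74-fold over the media (log2 1.46 ± 0.19 SE, adjusted p = 4.76e-04; 0.156 without the batch term). Of the 50-base stretches of Duoxa1, 15.26% also occur in Duoxa2 (the genes overlap on opposite strands), so its value is uncertain. Duox1 (log2 0.74 ± 0.29 SE, adjusted p = 0.37) and Duox2 (1.05 ± 0.33, adjusted p = 0.277) were not called.

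RNA processing genes gave 1 call among 9, with 0.339% of all genes called. Mfap1b, a spliceosome component, was at 8.18 to 13.4 CPM (median 10.1) in WT and 5.24 to 7.40 CPM (median 5.72) in KO. All 9 KO libraries lay below all 9 WT libraries, and the difference was 1.71-fold lower (log2 -0.77 ± 0.11 SE, adjusted p = 0.00111). Its near-identical neighbour Mfap1a holds 62.48% of its 50-base stretches, so the split of reads between the copies is uncertain. Mfap1a was at 17.2 ± 1.6 CPM in WT and 16.6 ± 2.74 CPM in KO (SD, n = 9 each) and was not called (adjusted p = 0.819).

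Stress and cell death genes gave 1 call among 9, with 0.339% of all genes called. Chac1 encodes an enzyme that degrades glutathione and is induced by the integrated stress response. It was at 2.99 to 7.47 CPM (median 5.31) in WT and 4.26 to 16.2 CPM (median 6.84) in KO, higher in each pair (log2 0.69 ± 0.14 SE, adjusted p = 0.0492; 1 without the batch term). The highest 3 KO values, 14.2, 12.6 and 16.2 CPM, were those of batch 2. Bmf, a pro-apoptotic BH3-only protein, was lower in KO in each of 9 pairs but was not called (log2 -0.73 ± 0.17 SE, adjusted p = 0.155; DESeq2 3.31e-04). The amino acid sensor kinase Eif2ak4 differed by 0.16 ± 0.05 (SE) with an adjusted p of 0.286.

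B2m, alone on its list, took 8.3% of the members' counts. It was at 475 to 845 CPM (median 585) in WT and 602 to 1374 CPM (median 727) in KO, higher in 9 of 9 pairs. Its log2 difference of 0.43 ± 0.10 (SE) had an adjusted p of 0.155 in edgeR and 0.00147 in DESeq2. Of 14 transcription and chromatin members, edgeR and DESeq2 called 0, with 6 at an unadjusted p under 0.05 in edgeR, a level that 1842 of the 17092 genes and 61 of the 148 members reached. Of 21 mitosis, replication and repair members edgeR called 0 and DESeq2 1, with 7 at an unadjusted p under 0.05.

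Of the remaining called members, Spata5l1 bears the name of an AAA ATPase gene, and the annotation calls this entry a processed transcript. It differed by -0.47 ± 0.09 (SE, adjusted p = 0.0289 in edgeR, and 0.168 without the batch term). The non-coding gene 1700020I14Rik differed by -0.32 ± 0.06 (SE, adjusted p = 0.0151; 1 without the batch term). Rhov too had an adjusted p of 1 without the batch term. All 19 called members had the same sign in each of the 3 batches. They were chosen by a fit to these same libraries with the batch as a block, which favours genes that agree between batches. The shared sign is therefore no separate result, and it is given without its share over all genes. DESeq2, run on the same counts, called all 19 and 9 more, a count likewise given without its share over all genes. In each of the 18 fits with 1 library left out, 11 of the 19 were called: Spint1, Chp1, Tyro3, Mapkbp1, Ehd4, Tmem87a, Ppip5k1, Ckmt1, Mfap1b, Duoxa1 and Bloc1s6.

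**Figure D3:**
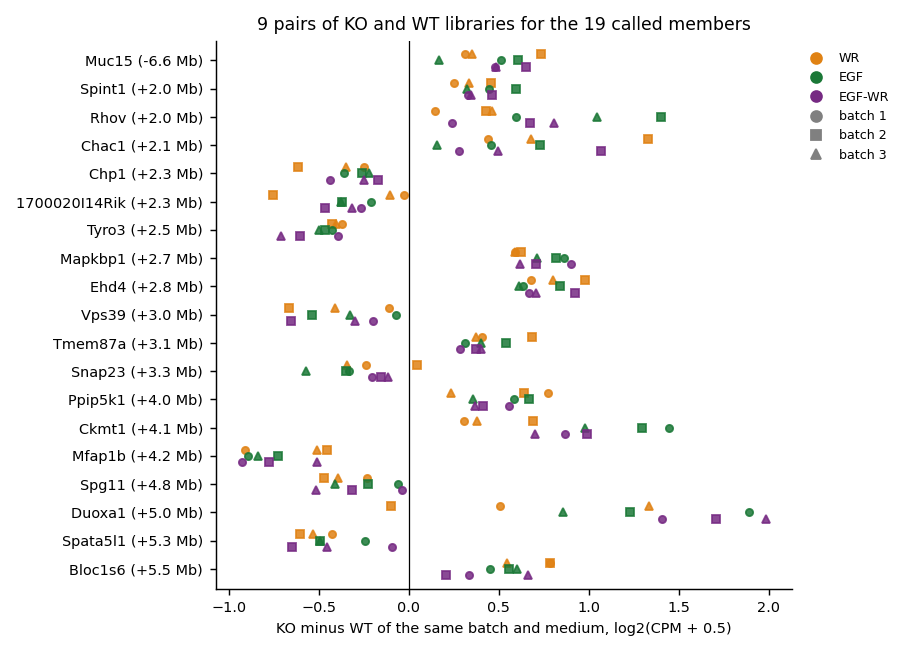
Difference of KO minus WT of the same batch and medium (horizontal axis, log2(CPM + 0.5)) for the 19 called members, ordered by position; colours are media and shapes are batches. The 9 points of a gene lie on the same side of 0 for all but Snap23 and Duoxa1, which each have 1 point on the other side.

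Counted by library, KO was on the same side of WT in 9 of 9 pairs for 26 members (17.6%), against 1.8% of all genes. The 9 pairs come from 3 batches, and those of a batch need not be independent. They are therefore not 9 separate replicates of genotype. The 9 KO libraries did not overlap the 9 WT libraries for 4 members (2.7%; 0.105% of all genes). These were Tmem87a, Ppip5k1 and Bloc1s6, higher in KO (0.0644% of all genes), and Mfap1b, lower in KO (0.041% of all genes). KO and WT were apart within each of the 3 media, on the same side, for 11 members (7.43%; 0.187% of all genes).

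In single media fewer members passed. In WR medium 5 members were called, all higher in KO: Mapkbp1, Ehd4, Tmem87a, Ppip5k1 and Bloc1s6 (3.38%; 0.0819% of all genes). In EGF medium 4 were called, all higher: Mapkbp1, Ehd4, Ppip5k1 and Ckmt1 (2.7%; 0.0702% of all genes). In EGF-WR medium 5 were called, with Mapkbp1, Ehd4, Ckmt1 and Duoxa1 higher and Tyro3 lower (3.38%; 0.0819% of all genes). These 3 comparisons hold the same libraries as the comparison over the media.

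Mapkbp1 was called in every medium, with log2 differences of 0.60 ± 0.09 (SE) in WR, 0.80 ± 0.09 in EGF and 0.75 ± 0.09 in EGF-WR medium (adjusted p = 0.00411, 1.40e-04 and 3.78e-04). Ehd4 was called in every medium too, at 0.83 ± 0.09, 0.70 ± 0.09 and 0.77 ± 0.09 (adjusted p = 1.62e-04, 0.00105 and 3.78e-04). Duoxa1 differed by 0.62 ± 0.31 in WR medium, 1.88 ± 0.36 in EGF medium and 1.87 ± 0.31 in EGF-WR medium (adjusted p = 0.894, 0.0769 and 0.0194). Without the batch term the counts in the 3 media were 0, 2 and 1, and with a batch left out they went as low as 0 without batch 3 in WR, 1 without batch 1 in EGF and 1 without batch 3 in EGF-WR medium. Leaving out single libraries took the WR count to 3 without KO EGF-WR or KO WR replicate 1, 2 without KO WR replicate 2, and 1 without KO WR replicate 3 or WT WR replicate 1 or 2. The EGF-WR count was 3 without any of the WT EGF-WR libraries or KO EGF-WR replicates 2 and 3.

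The authors' deposited table, fitted with a batch term per the file headers, has an adjusted p under 0.05 for 7 members in WR medium (6 higher in KO), 13 in EGF medium (9 higher) and 10 in EGF-WR medium (8 higher). Over all genes with an adjusted p there, the authors' deposited table has 0.434%, 0.212% and 0.447% under 0.05. Of the 19 called over the media, 14 are under 0.05 in at least 1 medium of the authors' deposited table, and Zfp106 is the only other member that is.

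Called members were not spread evenly along the stretch. None of the 5 members within 1 Mb of Rasgrp1 was called, 2 of 29 (6.9%) were within 2 Mb, 15 of 100 (15%) within 5 Mb and 19 of 148 (12.8%) within 10 Mb. On the lower side 1 of 28 was called and on the higher side 18 of 120. In steps of 1 Mb on the higher side, chosen after seeing the data, the counts were 0 of 3, 2 of 22, 6 of 21, 3 of 21, 4 of 18 and 3 of 8 out to 6 Mb. From 6 to 10 Mb, 0 of the 27 members were called. The 18 called members of the higher side start between Spint1 at 1.96 Mb and Bloc1s6 at 5.46 Mb, where 69 members lie (26.1% called; 0.339% of all genes). The ends of that stretch were set by the first and last called member, so its share is no separate result. By the same choice, the 23 members between Rasgrp1 and Spint1 were not called by edgeR, and neither were the 28 beyond Bloc1s6. Of the 17 pairs of called members that follow each other there, 10 had opposite signs.

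**Figure D4:**
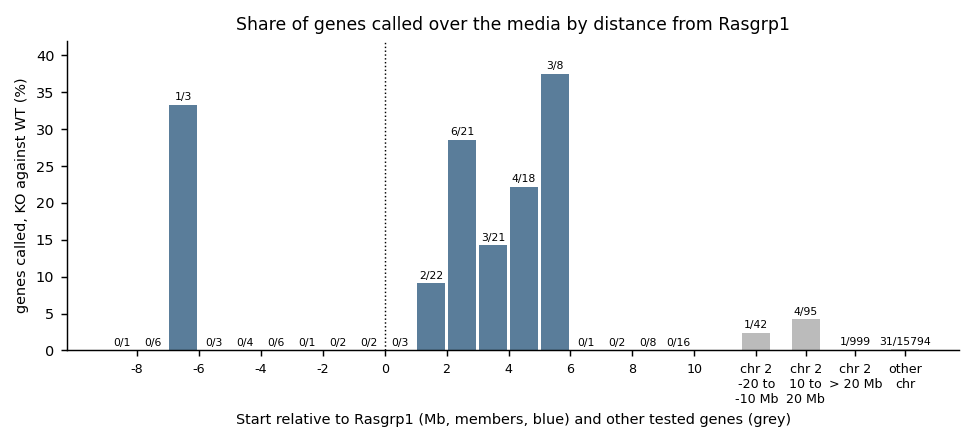
Percent of tested genes called between KO and WT over the media (vertical axis) by distance of the gene start from Rasgrp1 (horizontal axis, steps of 1 Mb, blue) and in other tested genes (grey); labels give called over tested genes. Calls stand between 1 and 6 Mb and in the step that holds Muc15; the steps with 1 to 8 genes rest on few members.

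Outside the window, 6 of 1136 tested genes on the rest of chromosome 2 were called (0.528%) and 31 of 15794 on other chromosomes (0.196%). All 6 were higher in KO. Depdc7 lay at -12.56 Mb, Sirpa, Pced1a, Prnp and Slc23a2 between 12.31 and 14.77 Mb, and Helz2 at 63.95 Mb. Within the window, 2 genes that are not members were called. Eif3j1 was lower in KO in 9 of 9 pairs (log2 -2.96 ± 0.24 SE, adjusted p = 1.09e-06). Pla2g4b, with a mean of 9.1 counts and thus under the minimum, had 162 counts over the WT libraries and 1 over the KO libraries (adjusted p = 0.00537).

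The closest neighbours of Rasgrp1 were among those without a call. On the lower side these were Dph6 at -2.76 Mb (log2 0.11 ± 0.05 SE), BC052040 at -1.7 Mb (-0.16 ± 0.11), the homeobox gene Meis2 at -1.42 Mb (0.18 ± 0.20), D330050G23Rik at -0.38 Mb (-0.87 ± 0.41) and Fam98b at -0.03 Mb (-0.01 ± 0.06). Fam98b, part of a tRNA ligase complex and the nearest member, was at 35.1 to 47.4 CPM (median 38.8) in WT and 32.2 to 46.7 CPM (median 43.2) in KO, and the ranges overlapped almost fully. On the higher side these were Thbs1 at 0.83 Mb, Gm29233 at 0.84 Mb, Gpr176 at 1.0 Mb, Eif2ak4 at 1.11 Mb and Srp14, a signal recognition particle subunit, at 1.2 Mb (0.14 ± 0.05). Gm29233 (1.10 ± 0.47) lies on the strand opposite to Thbs1, which covers 74% of its exons, so its counts cannot be told apart from those of Thbs1. Adjusted p-values of these 10 genes ran from 0.264 for Gpr176 to 0.984 for Fam98b.

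Called members had higher levels than the others. Their median level was 62.8 CPM, against 19.2 CPM for the 129 not called, and their median GC content was 46.07% against 43.41%. Exons overlapped another gene in 7 of 19 called and 55 of 129 other members. When only the 68 members without such overlap and with under 1% of 50-base stretches shared with another gene were kept, a setting chosen after seeing the data, 8 were called.

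The second set of comparisons asked how the neighbours responded to the medium. EGF against WR and EGF-WR against WR share the WR libraries, and likewise for the other pairs. In WT, EGF against WR medium called 36 members (12 higher in EGF, 24 lower), 24.3% against 15.4% of all genes. EGF-WR against WR medium called 15 (4 higher, 11 lower), 10.1% against 10.7%. EGF-WR against EGF medium called 33 (20 higher, 13 lower), 22.3% against 15.6%. In KO the counts were 23 (8 higher, 15 lower; 15.5% against 13.5%), 17 (4 higher, 13 lower; 11.5% against 12.7%) and 22 (12 higher, 10 lower; 14.9% against 11.6%). The calls rest on the batch term: without it the counts were 13, 2 and 1 in WT and 5, 3 and 0 in KO. Without batch 3 they were 12, 6 and 8 in WT and 8, 9 and 2 in KO. Without batch 1, EGF-WR against WR gave 9 in WT and 9 in KO, and EGF-WR against EGF gave 19 in WT without batch 2 and 14 in KO without batch 1 or 2. Single libraries mattered as well. EGF against WR in WT gave 23 without WT EGF replicate 2, 22 without WT WR replicate 3, and 21 without WT EGF replicate 3 or WT WR replicate 2, and in KO 12 without KO EGF or KO WR replicate 3. EGF-WR against WR gave 9 in WT without WT WR replicate 3 and 11 in KO without KO EGF-WR replicate 1. EGF-WR against EGF in WT gave 14 without WT EGF replicate 3 and 21 without WT EGF or WT EGF-WR replicate 2, and in KO 10 without KO EGF replicate 3 and 9 without KO EGF-WR replicate 3.

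Of the 3 members on the list of peroxide-producing oxidases, Duox1 and Duoxa1 were lower in EGF than in WR medium and Duox2 was not called. In this comparison 15.4% of all genes were called in WT and 13.5% in KO. Duoxa1 in WT was at 2.52, 6.87 and 5.28 CPM in WR medium, 0.301, 0.702 and 1.31 CPM in EGF medium and 2.08, 2.90 and 4.04 CPM in EGF-WR medium (batches 1 to 3). All EGF libraries were below all libraries of the other media. The log2 difference was -2.74 ± 0.35 (SE, adjusted p = 3.27e-05) for EGF against WR and 2.04 ± 0.35 (adjusted p = 9.04e-04; 0.0932 without the batch term) for EGF-WR against EGF. Duox1, the oxidase itself, was at 1.67, 6.49 and 4.65 CPM in WR medium, 0, 0.561 and 0.196 CPM in EGF medium and 2.49, 3.62 and 3.43 CPM in EGF-WR medium. It differed by -4.09 ± 0.57 (adjusted p = 6.99e-05) and 3.84 ± 0.57 (adjusted p = 3.10e-04). In KO both genes were called in the same directions: Duoxa1 at -1.48 ± 0.32 and 2.04 ± 0.32, Duox1 at -1.68 ± 0.49 and 2.00 ± 0.49, with adjusted p from 0.0893 to 0.273 without the batch term. In WT Duox2 was at 0.492, 0.276 and 1.53 CPM in WR medium and 0.669, 0.947 and 0.851 CPM in EGF medium.

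Of the 19 metabolism and transport members, 6 were lower, 3 higher and 10 not called in EGF against WR medium in WT (15.4% of all genes called). In KO 3 were lower, 1 higher and 15 not called (13.5% of all genes called). Bbox1, the last enzyme of carnitine synthesis, was at 32.4, 27.8 and 26.9 CPM in WR medium, 4.55, 7.26 and 6.55 CPM in EGF medium and 8.69, 8.68 and 6.21 CPM in EGF-WR medium. Both media with EGF lay far below WR medium, with log2 differences of -2.22 ± 0.32 (SE, adjusted p = 1.90e-04) and -1.90 ± 0.32 (adjusted p = 0.00109), and KO gave -2.18 ± 0.33 and -1.63 ± 0.32. Sord, sorbitol dehydrogenase, differed by -0.92 ± 0.17 and -0.68 ± 0.16 in the same 2 comparisons in WT (adjusted p = 7.83e-04 and 0.0111). Of the 50-base stretches of Sord, 31.26% also occur in Gm6652, so its value is uncertain. Ckmt1 in WT was at 143, 109 and 159 CPM in WR, 61.9, 58.4 and 83.9 CPM in EGF and 122, 75.4 and 121 CPM in EGF-WR medium. It was lower in EGF than in WR medium by -1.0 ± 0.11 (adjusted p = 1.11e-05), a comparison in which KO showed -0.23 ± 0.11 and no call (adjusted p = 0.22). The phospholipid enzyme Lpcat4 was higher in EGF than in WR medium in WT (0.65 ± 0.15, adjusted p = 0.00623) and lower in EGF-WR than in EGF medium (-0.48 ± 0.15, adjusted p = 0.038; 0.154 without the batch term). Sqor, which oxidizes hydrogen sulfide in mitochondria, was at 13.1, 10.2 and 13.8 CPM in WR medium, 20.5, 13.9 and 19.4 CPM in EGF medium and 13.4, 8.98 and 13.5 CPM in EGF-WR medium. EGF was the highest medium in each batch, with 0.52 ± 0.16 (adjusted p = 0.033) against WR medium and -0.59 ± 0.16 (adjusted p = 0.019) for EGF-WR against EGF medium, and with 0.396 and 0.325 without the batch term.

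Of the 9 stress and cell death members, Pdia3 was called between media in WT. Of all genes, 15.4% were called for EGF against WR and 15.6% for EGF-WR against EGF. Pdia3, a disulfide isomerase of the endoplasmic reticulum, was at 480, 499 and 536 CPM in WR medium, 629, 650 and 747 CPM in EGF medium and 530, 589 and 569 CPM in EGF-WR medium. The EGF libraries lay above the 6 others, with 0.42 ± 0.06 (SE, adjusted p = 5e-05) against WR medium and -0.26 ± 0.06 (adjusted p = 0.00448; 0.223 without the batch term) for EGF-WR against EGF medium.

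Signalling genes split in both directions. Of 22 members, 4 were higher and 5 lower in EGF against WR medium in WT, where 15.4% of all genes were called. Spint1 was at 145, 128 and 136 CPM in WR medium, 183, 205 and 223 CPM in EGF medium and 186, 168 and 172 CPM in EGF-WR medium. WR was the lowest medium in each batch, and EGF against WR gave 0.58 ± 0.08 (SE, adjusted p = 1.28e-04). Lgr4 was at 138, 161 and 157 CPM in WR medium and 166, 255 and 211 CPM in EGF medium (0.45 ± 0.11, adjusted p = 0.0101; 0.286 without the batch term). Rhov fell from 67.0, 68.5 and 49.0 CPM in WR medium to 21.8, 34.6 and 15.9 CPM in EGF medium (-1.41 ± 0.22, adjusted p = 4.28e-04) and was at 29.7, 33.0 and 19.5 CPM in EGF-WR medium (-1.19 ± 0.21 against WR, adjusted p = 0.00253; 0.126 without the batch term). Tyro3 was lower in EGF than in WR medium in WT (-0.57 ± 0.10, adjusted p = 4.69e-04) and in KO (-0.64 ± 0.10, adjusted p = 2.20e-04). Mapkbp1 was lower in both EGF media than in WR medium in WT (-0.39 ± 0.09 and -0.41 ± 0.09, adjusted p = 0.00393 and 0.00398; 0.0926 and 0.112 without the batch term).

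Shf and Secisbp2l rose with EGF. Shf, an adaptor protein with an SH2 domain, was at 55.8, 55.8 and 54.3 CPM in WR medium, 101, 92.2 and 92.8 CPM in EGF medium and 116, 94.5 and 110 CPM in EGF-WR medium in WT. The WR libraries lay below all others, with log2 differences of 0.78 ± 0.11 (SE, adjusted p = 6.70e-05) and 0.93 ± 0.11 (adjusted p = 2.51e-05). In KO the same differences were 1.17 ± 0.11 and 1.31 ± 0.11. Secisbp2l, a relative of a selenoprotein synthesis factor, was at 189, 230 and 258 CPM in WR medium, 249, 406 and 392 CPM in EGF medium and 327, 450 and 595 CPM in EGF-WR medium. EGF-WR against WR gave 0.99 ± 0.13 (adjusted p = 1.24e-04; 0.0661 without the batch term) in WT and 1.01 ± 0.13 (adjusted p = 9.79e-05; 0.0632 without the batch term) in KO.

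**Figure D5:**
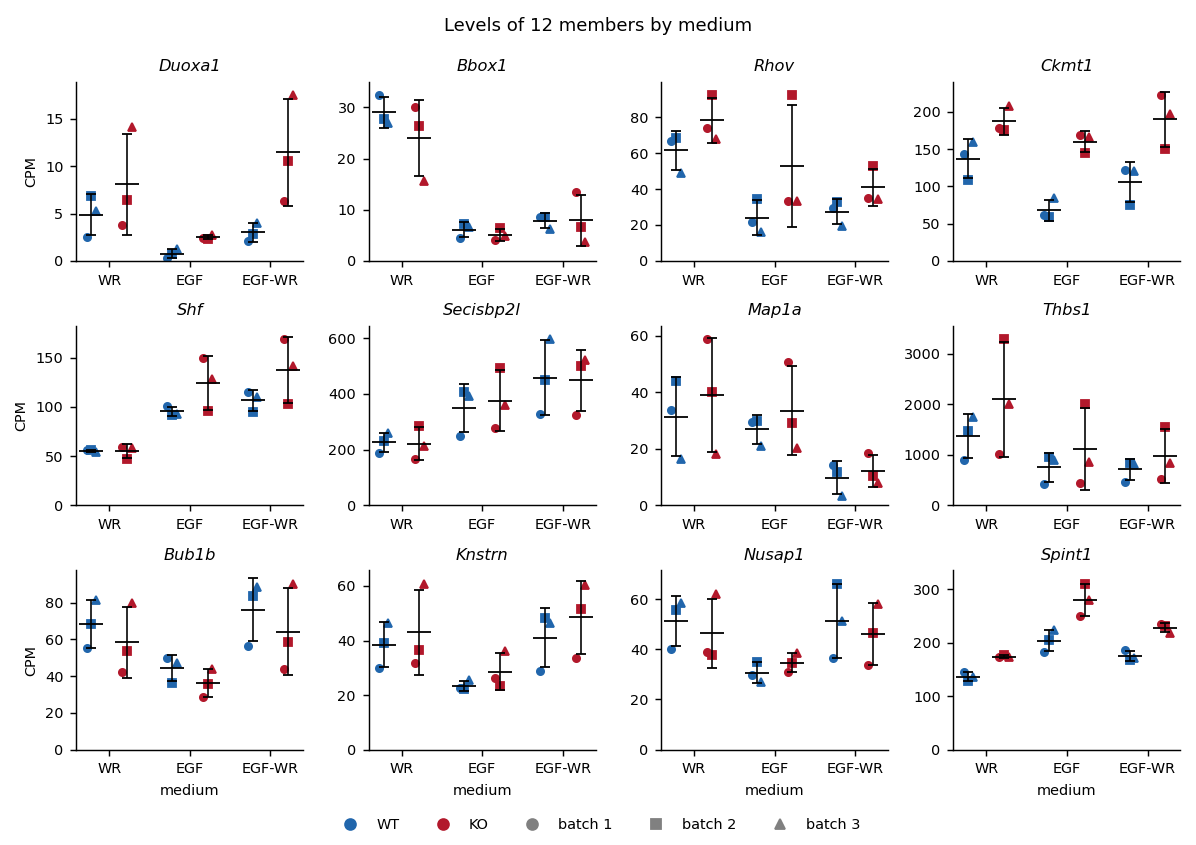
CPM per library (vertical axis, from 0) by medium (horizontal axis) for 12 members with a response to the medium; blue is WT, red is KO, marker shapes are batches, and black bars are mean ± SD of 3 libraries. Duoxa1 is lowest in EGF medium, Bbox1 and Rhov are highest in WR medium in WT, Shf is lowest in WR medium, and Bub1b, Knstrn and Nusap1 are lowest in EGF medium in WT.

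Map1a, Gpr176, Stard9 and Sema6d were lower in EGF-WR than in EGF medium in WT, and Thbs1 was lower in both media with EGF than in WR medium. Map1a, a microtubule-associated protein, was at 33.6, 44.0 and 16.5 CPM in WR medium, 29.5, 29.9 and 21.1 CPM in EGF medium and 14.4, 12 and 3.18 CPM in EGF-WR medium in WT. It differed by -1.77 ± 0.29 (SE, adjusted p = 0.00122) against WR and -1.63 ± 0.29 (adjusted p = 0.0019) against EGF medium, with 0.143 and 0.198 without the batch term. Thbs1 was at 894, 1474 and 1739 CPM in WR medium, 424, 951 and 888 CPM in EGF medium and 459, 843 and 826 CPM in EGF-WR medium. Against WR medium it differed by -0.92 ± 0.25 in EGF (adjusted p = 0.0292; 0.551 without the batch term) and -0.96 ± 0.25 in EGF-WR medium (adjusted p = 0.0306; 0.561 without the batch term), and EGF-WR against EGF was not called (adjusted p = 0.939). Against EGF medium, EGF-WR gave -1.03 ± 0.28 for Gpr176, an orphan receptor, -1.02 ± 0.21 for the kinesin Stard9, and -0.71 ± 0.13 for Sema6d, a semaphorin (adjusted p = 0.0185, 0.00299 and 0.00128; 0.369, 0.304 and 0.179 without the batch term).

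Markers of other cell types moved in these comparisons too. In WT, EGF against WR medium called 3 of 6 basal markers lower, 2 of 6 fibroblast markers higher, and 1 luminal marker higher and 1 lower, with 0 of 5 endothelial and 0 of 5 adipocyte markers called by edgeR. In WT, EGF-WR against WR medium called 5 of 5 endothelial, 5 of 5 adipocyte and 3 of 6 fibroblast markers, all lower, and 5 of 6 basal markers lower. It also called 2 luminal markers higher and 1 lower. EGF-WR against EGF medium in WT called 5 of 5 endothelial, 5 of 5 adipocyte and 5 of 6 fibroblast markers, all lower. The same comparison called 2 basal markers higher and 2 lower, 1 luminal marker (Elf5) higher and 1 myeloid marker (Csf1r) lower. Summed endothelial markers were 235 to 354 CPM in WR, 330 to 397 CPM in EGF and 70.1 to 164 CPM in EGF-WR medium in WT. Summed fibroblast markers were 581 to 2181, 800 to 2595 and 355 to 1045 CPM, summed adipocyte markers 310 to 1098, 299 to 744 and 39.6 to 266 CPM, and summed basal markers 6198 to 8302, 3806 to 4470 and 4354 to 5465 CPM. In KO, EGF against WR called 3 basal markers lower and 1 higher, 1 fibroblast marker higher and 2 luminal markers higher. EGF-WR against WR in KO called 5 of 5 endothelial, 5 of 5 adipocyte, 2 of 6 fibroblast and 5 of 6 basal markers lower. It also called 3 luminal markers higher and 1 lower. EGF-WR against EGF in KO called 3, 4 and 4 endothelial, adipocyte and fibroblast markers lower. Further calls there were 1 basal marker higher and 2 lower, Elf5 higher and Csf1r lower. Their part in the results for Map1a, Thbs1, Gpr176, Stard9, Sema6d and the other members was not tested.

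Of 21 members on the list of mitosis, replication and repair genes, 6 were lower, 0 higher and 15 not called in EGF than in WR medium in WT, where 15.4% of all genes were called. The 6 were Bub1b, Knstrn, Nusap1, Ncaph, Cep152 and Arhgap11a. In EGF-WR against EGF medium 9 were higher, 0 lower and 12 not called, against 15.6% of all genes called. Among the 9 were Bub1b, Knstrn, Nusap1, Ncaph, Arhgap11a, Oip5, Dut and Rpap1. The list's median log2 difference was 0.42 against 0.005 over all genes. The list was written from general knowledge. The place of Rpap1 and Dtwd1 on it is doubtful, and all counts of this list include them. In KO 3 were lower and 18 not called in EGF against WR medium (13.5% of all genes called). In EGF-WR against EGF medium in KO, 5 were higher and 16 not called (11.6% of all genes called). EGF-WR against WR medium called 0 in either genotype by edgeR and by DESeq2, with 1 at an unadjusted p under 0.05 in each. Without the batch term 0 members of the list were called in any of these comparisons, by edgeR.

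Knstrn, a kinetochore and spindle protein, was at 29.9, 39.2 and 46.4 CPM in WR medium, 22.5, 22.2 and 25.5 CPM in EGF medium and 28.7, 48.2 and 46.3 CPM in EGF-WR medium in WT. Bub1b, a spindle checkpoint kinase, was at 55.1, 68.2 and 81.4 CPM in WR medium, 50.0, 36.5 and 47.2 CPM in EGF medium and 56.4, 83.5 and 88.4 CPM in EGF-WR medium. For both genes the 3 EGF libraries lay below the 6 others. EGF-WR against EGF gave 0.78 ± 0.16 (SE, adjusted p = 0.00287) for Knstrn and 0.73 ± 0.17 (adjusted p = 0.00901) for Bub1b, with 0.151 and 0.175 without the batch term. In KO the values were 0.74 ± 0.16 and 0.80 ± 0.17 (adjusted p = 0.00613 and 0.00776; 0.244 and 0.207 without the batch term).

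Nusap1, which bundles spindle microtubules, was at 40.0, 55.7 and 58.3 CPM in WR medium, 29.9, 35.0 and 26.9 CPM in EGF medium and 36.6, 66.1 and 51.1 CPM in EGF-WR medium in WT. Its log2 difference was -0.71 ± 0.18 (SE, adjusted p = 0.0125; 0.106 without the batch term) for EGF against WR and 0.71 ± 0.18 (adjusted p = 0.0148; 0.141 without the batch term) for EGF-WR against EGF. The EGF libraries lay below the EGF-WR libraries, and batch 1 showed the smallest gap. Ncaph, a condensin subunit, was at 32.0, 31.6 and 30.5 CPM in EGF medium and 32.8, 57.9 and 53.1 CPM in EGF-WR medium (0.56 ± 0.16, adjusted p = 0.0238; 0.239 without the batch term).

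The promoters of 2 of these genes are shown because both were higher in EGF-WR than in EGF medium and both hold the letters TTTGAA, the core of the cell cycle genes homology region, within 50 bases past the start. They are from RefSeq on GRCm38.p6, 250 bases before to 50 bases after the gene start, 5′ to 3′ on the gene's strand, with TTTGAA or its reverse complement TTCAAA in capitals. The Bub1b window is chr2:118597961-118598260 on the plus strand, and the Oip5 window is chr2:119618456-119618755 on the minus strand; Oip5 encodes a factor that loads the centromere histone.
Bub1b: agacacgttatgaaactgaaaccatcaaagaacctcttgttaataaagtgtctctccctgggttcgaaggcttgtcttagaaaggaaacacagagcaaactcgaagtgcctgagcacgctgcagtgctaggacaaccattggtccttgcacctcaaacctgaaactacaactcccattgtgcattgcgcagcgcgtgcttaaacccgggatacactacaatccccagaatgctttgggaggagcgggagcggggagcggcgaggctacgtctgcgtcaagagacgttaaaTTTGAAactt
Oip5: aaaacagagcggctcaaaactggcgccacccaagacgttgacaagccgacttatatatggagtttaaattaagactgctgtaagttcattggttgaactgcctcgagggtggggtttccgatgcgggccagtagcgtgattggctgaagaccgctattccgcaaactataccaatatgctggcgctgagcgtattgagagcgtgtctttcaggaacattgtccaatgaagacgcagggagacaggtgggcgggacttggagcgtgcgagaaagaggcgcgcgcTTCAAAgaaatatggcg
The letters start 40 bases past the start in Bub1b and 33 in Oip5. Of all 27025 promoter windows of this length in the table, 18.1% hold TTTGAA on either strand. Of the 131 members with a window, 16% do, and of the 19 mitosis, replication and repair members with a window 4 do (Bub1b, Oip5, Knl1 and Arhgap11a). Among the 8 with a window that were called for EGF-WR against EGF in WT, 3 do. Knstrn, Nusap1, Ncaph, Dut and Rpap1 were called there and lack the letters. A link between the letters and the response was not tested. Oip5 itself was at 3.98, 4.91 and 4.58 CPM in EGF medium and 4.85, 9.24 and 8.66 CPM in EGF-WR medium in WT (0.70 ± 0.23, adjusted p = 0.0465; 0.354 without the batch term) and differed by 1.01 ± 0.23 in KO (adjusted p = 0.0102; 0.257 without the batch term). Knl1, which also holds the letters, was not called (0.25 ± 0.19, adjusted p = 0.43).

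Of the 36 members called for EGF against WR in WT and 23 in KO, 20 were called in both with the same sign, which is 55.6% of the WT list and 87% of the KO list. For EGF-WR against WR 11 were shared (73.3% and 64.7%), and for EGF-WR against EGF 20 (60.6% and 90.9%). The difference between genotypes in the response was tested directly for each member, and edgeR called 0 of 148 in each of the 3 interaction contrasts, as did DESeq2 (0% of all genes in edgeR). At an unadjusted p under 0.05 edgeR had 10, 4 and 4 of the 148 members, and 356, 286 and 306 of the 17092 genes. The lowest p was that of Ckmt1 for EGF against WR, where KO minus WT in the log2 response was 0.78 ± 0.16 (SE, unadjusted p = 1.59e-04, adjusted p = 1).

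Over the 6 medium comparisons, 56 members (37.8%) were called at least once, against 31.1% of all genes. Of the 19 members called between genotypes, 9 (47.4%) were also called between media, against 37.8% of all members and 31.1% of all genes. Neither set of comparisons called 82 members (55.4%), a count given without its share over all genes.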

How the data were processed

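Per the labels' protocols, TrypLE released the organoid cells, RNA came from columns, a NuGEN kit gave the libraries, and a HiSeq 4000 read them from a single end. The authors deposited a table of whole-number counts per Ensembl gene. STAR, DESeq2 and GRCm38 are named in the submitters' processing notes; the sources used here do not give versions, annotation release or strand setting. The deposited table also has normalized signal and variance-stabilized log2 values for every library, per the file headers; neither was tested. Per the file headers it also holds the authors' log2 fold changes, folds, p-values and adjusted p-values per comparison, with terms for genotype, treatment, batch and their interaction, and each gene's GC percent. Symbols and positions were taken from it, and 146 of 148 members have the same start in GENCODE M21.

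For the fit, TMM factors scaled the counts in edgeR 4.0.16 (R 4.3.3), which were filtered with filterByExpr (minimum count 10, minimum total 15), leaving 17092 genes. A single model held the 18 libraries, with 6 group means and the batch as a block, since the file headers name a batch term. The robust quasi-likelihood F-test was used, two-sided, with Benjamini-Hochberg adjustment over all genes in every one of 13 contrasts; called means an adjusted p under 0.05. Levels are CPM on effective library sizes; batch values use log2(CPM + 0.5). SE is the standard error of the log2 difference.

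Same-batch libraries of different groups deviated from their group means together, with correlations of 0.265 to 0.642. Between batches they were -0.404 to 0.031. The deviations of the 3 libraries of a group cancel out, which pushes the between-batch values below the same-batch ones, so they are no separate contrast. The pairing comes from the batch in the labels. None of the 18 pairs of libraries within a group agreed within sampling noise. On simulated counts for KO against WT over the media with 17092 genes, 80% of genes changed 1.5-fold and 100% of those changed 8-fold were called, and 13 of 190 calls were false. For KO against WT in EGF medium, over the same 17092 genes, these were 58% and 94%, and 8 of 161 calls were false. The simulation changed 50 genes at each fold, and in the data 58 genes were called over the media. Its counts were drawn with the count spread of the fit, without the further gene-by-gene spread that the test adds. Recovery in the measured data may therefore be lower.

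Named with values, by rule, are members called between KO and WT, the 5 nearest to Rasgrp1 on each side, and the 6 largest called changes each way per medium comparison in WT (at least 4 CPM, groups not overlapping). Up to 4 called members of a role list, members with a defining role that were not called, and those at the edges of the rule are named too. The members and lists were chosen with earlier results of these data known. Exon overlaps and shared 50-base stretches came from GENCODE M21. Alternatives were DESeq2 1.42.0, RLE size factors, no low-count filter, no batch term, only the 6 libraries of a comparison, a threshold of 0.01, other windows, and leaving out each library or batch. The values of 1 member are not reported here.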

Additional observations from a re-analysis of the deposited data

How the results depend on the processing

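Without the replicate block, members called over the media were 8 (7 higher in KO, 1 lower), in WR medium 0, in EGF 2 and in EGF-WR 1; between media they were 13, 2 and 1 in WT and 5, 3 and 0 in KO for EGF against WR, EGF-WR against WR and EGF-WR against EGF. DESeq2 called 14 members in EGF and 8 in EGF-WR medium, and no low-count filter gave 7 in EGF medium. With only the 6 libraries of the comparison, WR medium gave 0. At an adjusted p under 0.01, 11 remained over the media, and 8 of the members without overlap or shared stretches were called. The share called was 0% within 1 Mb, 6.9% within 2 Mb and 0.528% on the rest of chromosome 2.

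With a library or batch left out, members called ranged from 7 to 18 over the media, 0 to 5 in WR, 1 to 6 in EGF and 1 to 6 in EGF-WR medium. Between media in WT they ranged from 12 to 35, 6 to 18 and 8 to 34, and in KO from 8 to 23, 9 to 17 and 2 to 25, in the order above; interactions stayed at 0. Leaving out a batch removes 6 libraries, and the cause of the other changes was not tested. Of 1550 values of named members under other settings, 1317 kept their direction and side of the threshold and none changed sign. Whether depth limits the calls of members with few counts was not tested.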
